A study of Mus musculus with 9 samples.

Results

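The genes described here are 44 enzymes, carriers and regulators of fatty acid metabolism, chosen by symbol from the 52459 gene symbols of a mouse islet RNA-seq count table. They were grouped as 11 genes of fatty acid synthesis, elongation and desaturation and 19 genes of uptake, triglyceride storage, lipolysis and lipoprotein handling. The other 14 were grouped under mitochondrial and peroxisomal oxidation, a subset that also holds the kinase gene Pdk4 and the regulators Ppara, Pparg and Ppargc1a. RNA came from islets of Langerhans, the clusters of endocrine cells in the pancreas, of db/db, db/+ and wild-type (WT) mice, each 12 weeks old, with 3 libraries a group. The db allele is a mutation of Lepr, the leptin receptor gene; db/db mice carry it on both chromosomes and become obese and diabetic, and db/+ mice carry 1 copy. All 3 groups, WT included, bear the same strain label, and whether the WT mice come from the same colony is not given. The mutation is present in every cell of the animal, not in islets alone. Sex and the number of mice per library are not given.

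Fatty acids are built in the cytosol from citrate. ATP citrate lyase makes acetyl-CoA, acetyl-CoA carboxylase makes malonyl-CoA, fatty acid synthase makes palmitate, and elongases and desaturases then lengthen it and add double bonds. Fatty acids taken up or made are activated to acyl-CoA and either esterified to triglyceride in lipid droplets or carried into mitochondria by the carnitine palmitoyltransferases and oxidised; malonyl-CoA inhibits that transport. In pancreatic beta cells, which secrete insulin, glucose carbon feeds malonyl-CoA, and lipid intermediates are known to modulate secretion.

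The 9 libraries held 8860024 to 11734886 counts. The islet label was checked against Ins2, an insulin gene of beta cells, which stood at 45891 to 56269 CPM (the count scaled to a common library size) in db/db, 48618 to 51815 CPM in db/+ libraries and 38230 to 59369 CPM in WT libraries. Lepr stood at 2.05 to 9.47 CPM in db/db, 1.52 to 4.37 CPM in db/+ libraries and 1.72 to 3.17 CPM in WT libraries; a whole-gene count does not show the db mutation and so does not check the genotype. Several libraries stood apart. In db/db 1, WT 1 and WT 3 both Xist, an RNA of female cells, and Y-linked genes were detected. WT 2 and the db/+ libraries had Y-linked reads with Xist under 1 CPM, and db/db 2 and db/db 3 had Xist with almost no Y-linked reads. No db/+ library shared its pattern with a db/db library, so sex or pooling cannot be told apart from genotype between those groups. Gm42418 and Lars2, which overlap ribosomal RNA sequence, took 17.9, 13.3 and 0.0558% of the db/db counts. Their share was 2.18, 2.58 and 1.89% in WT libraries and 0.0237, 0.0220 and 0.0221% in db/+ libraries, so it differed between all 3 groups. Library db/db 1 also had the highest sum of acinar markers, and it was the highest of the 9 libraries for 17 of the 42 lipid genes tested (40.5%), against 19.4% of all genes tested. The calls that leaving it out removes or adds are named with the genes. Replicate numbers follow accession order and pair nothing, and nothing says that the libraries come from separate animals, so p-values measure the spread between these libraries, which may be technical.

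Of the 44 genes, 42 passed the filter on low counts and were tested beside 16784 others with the quasi-likelihood test of edgeR; p-values were adjusted by Benjamini and Hochberg over the whole table, and an adjusted p of 0.05 or less is a call. "Rose" and "fell" below refer to such calls. In db/db against WT islets, 20 of the 42 (47.6%) were called, 12 higher and 8 lower. Over all tested genes 41.7% were called, 21.8% higher and 19.9% lower, so the total for the lipid genes was near the background. The db/db libraries lay above all WT libraries for 15 of the 42 and below them for 10, against 26.2% and 25.3% of all tested genes (51.5% together). By subset, synthesis genes had 2 risen and 6 fallen of 11, storage genes 7 risen and 1 fallen of 18, and oxidation genes 3 risen and 1 fallen of 13. The median log2 fold change was -0.26 for synthesis, 0.23 for storage and -0.02 for oxidation, beside 0.01 for all tested genes. Without db/db 1, 7 rose and 8 fell, with 5 risen storage genes and no risen oxidation gene. Without WT 3, 7 rose and 8 fell, and without WT 1, 12 rose and 8 fell. Over all tested genes these fits called 38.3, 35.8 and 35.5%, in that order. Scaling by library totals moved the median of all tested genes by -0.22 (2176 higher and 5317 lower, against 3670 higher and 3348 lower as reported) and gave 1 risen and 6 fallen synthesis genes, 6 risen and 3 fallen storage genes and 1 risen and 2 fallen oxidation genes. In bulk tissue, fewer cells of a type and less RNA per cell cannot be told apart in any of these differences.

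**Figure D1:**
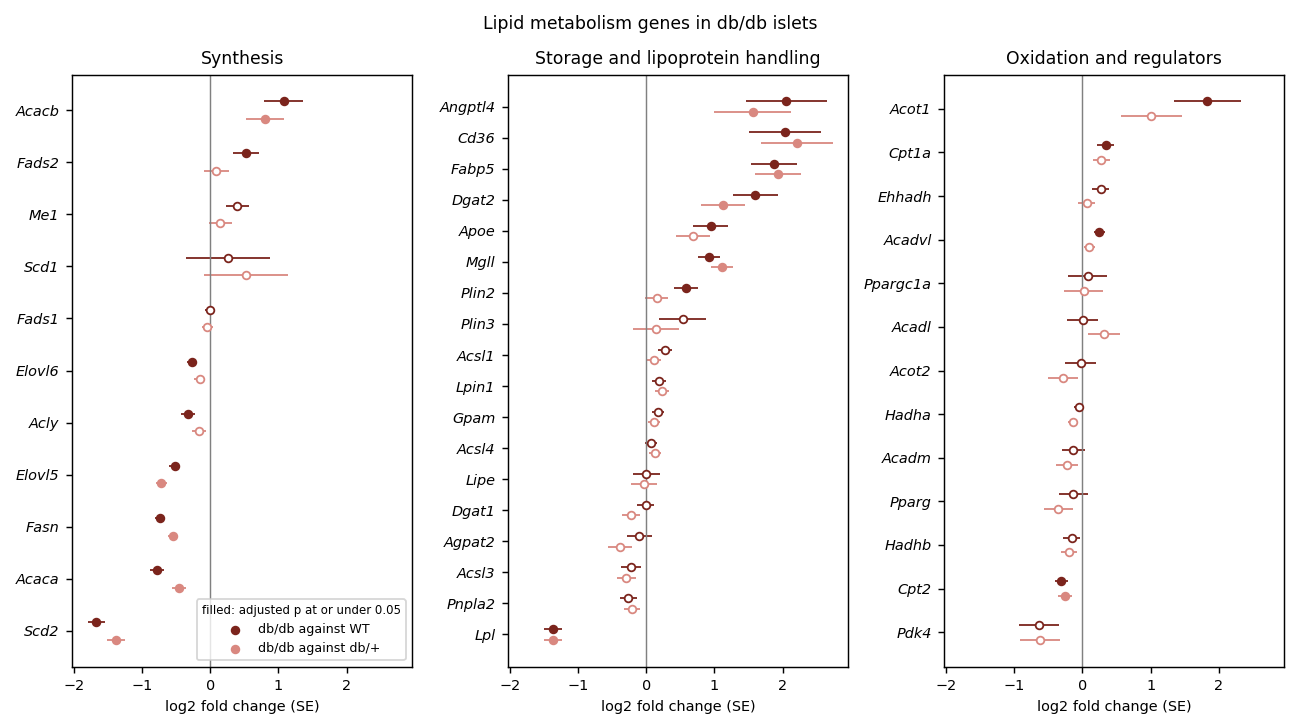
Log2 fold change (x axis, bars are standard errors) of the 42 tested genes in db/db against WT (dark) and db/db against db/+ islets (light), by subset; filled points have an adjusted p at or under 0.05. Most called synthesis genes lie left of 0, down to -1.67 for Scd2, and most called storage genes lie right of it, with Lpl at -1.36 as the exception.

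Of the 11 synthesis genes, Scd2, Acaca, Fasn, Elovl5, Acly and Elovl6 fell in db/db against WT islets, Acacb and Fads2 rose, and 3 were not called. Markers of endocrine cells fell beside them: of 10 beta cell markers, 7 fell and 1 rose against WT (median log2 fold change -1.32) and likewise 7 fell and 1 rose against db/+ (median -1.38), and of 7 alpha cell markers 5 fell and 2 rose in each comparison. The summed level of the beta cell list, which insulin genes dominate, was 91969 to 125208 CPM in db/db, 104206 to 116249 CPM in db/+ libraries and 83874 to 121523 CPM in WT libraries. Over all tested genes, 19.9% fell against WT and 19.7% against db/+. The part of endocrine cells in the changes of the synthesis genes was not tested. Scd2, a stearoyl-CoA desaturase that makes monounsaturated fatty acids (chr19:44293676-44306864, GRCm38.p6), had the largest fall of the 11. Its level was 133, 113 and 110.2 CPM in db/db libraries, against 258, 357 and 313 CPM in db/+ libraries and 421, 381 and 330.2 CPM in WT libraries. Every db/db library lay below every other library. The log2 fold change was -1.67 ± 0.13 (SE) against WT (adjusted p = 1.09e-06, edgeR) and -1.38 ± 0.13 against db/+ (adjusted p = 4.71e-06, edgeR). Its neighbour Scd1 (chr19:44394450-44407709) is close in sequence, so counting could split reads between them, and both values are uncertain in that respect. Scd1 was low, at 22.1, 5.20 and 6.03 CPM in db/db, 6.79, 10.5 and 5.47 CPM in db/+ libraries and 10.7, 11.02 and 5.28 CPM in WT libraries, with no call (0.27 ± 0.61, adjusted p = 0.76, edgeR). The high db/db value is db/db 1. Per kilobase of transcript, Scd2 exceeded Scd1 5.34, 19.3 and 16.2 times in db/db libraries, 33.6, 30.0 and 50.9 times in db/+ libraries, and 34.8, 30.7 and 55.4 times in WT libraries.

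Fasn, the multifunctional fatty acid synthase (chr11:120805958-120825166), stood at 160.1, 165 and 175 CPM in db/db, 225, 256 and 252 CPM in db/+ libraries and 282, 276 and 278 CPM in WT libraries. The 3 groups did not overlap. The fall was -0.74 ± 0.08 on the log2 scale against WT (adjusted p = 4.79e-06, edgeR) and -0.55 ± 0.08 against db/+ (adjusted p = 6.87e-05, edgeR). Elovl5, an elongase of polyunsaturated fatty acids, had 105, 112 and 104 CPM in db/db, 175, 179 and 175 CPM in db/+ libraries and 156, 168 and 138 CPM in WT libraries. It fell by 0.52 ± 0.08 against WT (log2, adjusted p = 1.54e-04, edgeR) and by 0.72 ± 0.08 against db/+ (log2, adjusted p = 1.01e-05, edgeR). Acly, the ATP citrate lyase that supplies acetyl-CoA, was the most abundant synthesis gene per kilobase in every group, with mean levels of 344 CPM per kb in db/db, 385 CPM per kb in db/+ and 430 CPM per kb in WT islets. Its fall was small, at -0.32 ± 0.10 (adjusted p = 0.0235, edgeR), and without db/db 1 or without WT 2 it was not called (adjusted p = 0.0681 and 0.0855). Elovl6, the elongase of palmitate, fell by 0.26 ± 0.08 (log2, adjusted p = 0.0144, edgeR). Neither Acly nor Elovl6 was called against db/+ (adjusted p = 0.23 and 0.129).

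Elovl5, Elovl6 and Acaca overlap other RefSeq genes, as do Plin2, Mgll and Cpt1a below; whether counting used strand is not given, so some of their reads could belong to the overlapping gene.

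The 2 acetyl-CoA carboxylases moved in opposite directions. Acaca encodes the cytosolic enzyme that supplies malonyl-CoA for synthesis (chr11:84129635-84401651), and Acacb the form at the mitochondrial surface whose malonyl-CoA acts on fatty acid transport (chr5:114146321-114250761). Acaca had 23.2, 20.8 and 24.9 CPM in db/db, 28.9, 33.9 and 31.9 CPM in db/+ libraries and 38.1, 38.7 and 42.1 CPM in WT libraries. Again the groups did not overlap, and it fell by 0.78 ± 0.10 against WT (log2, adjusted p = 3.91e-05, edgeR) and by 0.46 ± 0.10 against db/+ (adjusted p = 0.00291). Acacb had 14.4, 7.06 and 6.79 CPM in db/db, 5.26, 5.99 and 4.73 CPM in db/+ libraries and 5.55, 3.97 and 3.66 CPM in WT libraries. All db/db libraries lay above the others, db/db 1 by the most. It rose by 1.08 ± 0.29 against WT (adjusted p = 0.00912, edgeR) and by 0.81 ± 0.28 against db/+ (adjusted p = 0.0347, edgeR). Without db/db 1 the change was 0.64 against WT (adjusted p = 0.0374) and 0.39 against db/+, which was not called (adjusted p = 0.196); the call against db/+ was also lost on leaving out any db/+ library. Per kilobase, the ratio of Acacb to Acaca was 0.673, 0.367 and 0.295 in db/db libraries, 0.197, 0.191 and 0.161 in db/+ libraries and 0.158, 0.111 and 0.0941 in WT libraries, so Acaca remained the higher of the pair in each library.

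Fads2, a desaturase of polyunsaturated fatty acids, had 20.03, 15.2 and 12.0 CPM in db/db, 14.8, 15.4 and 13.8 CPM in db/+ libraries and 13.7, 9.21 and 9.45 CPM in WT libraries. The db/db and WT libraries overlapped, the call was marginal (0.53 ± 0.20, adjusted p = 0.0448, edgeR), and it was lost on leaving out any library except WT 1 and db/db 3 (0.32, adjusted p = 0.193 without db/db 1). Fads1, which works beside Fads2, stayed at 46.0 to 51.6 CPM over all 9 libraries and was not called. Me1, the cytosolic malic enzyme that supplies NADPH, was at 9.06, 10.9 and 12.2 CPM in db/db against 8.09, 7.59 and 8.84 CPM in WT libraries, without a call (0.40 ± 0.17, adjusted p = 0.0734, edgeR); without db/db 1 it was called higher (0.50, adjusted p = 0.0375).

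Upstream sequence is shown for the called genes with the lowest (Fasn, Acaca) and highest (Cd36, Acacb) fold changes among those that reached 5 CPM in 1 of the groups and have an entry in the RefSeq promoter table (36 of 44 genes had one), to let the falling and rising genes be set side by side. Each is the 250 bases before 1 RefSeq start on GRCm38.p6, the assembly of mm10, written 5′ to 3′ on the gene's strand. For Acaca, Acacb, Cd36 and Fasn alike, that start lies inside the gene's span, so others exist. Capitals mark matches on either strand to CCAAT or GGGCGG.
Acacb (chr5:114165268-114165517, plus strand): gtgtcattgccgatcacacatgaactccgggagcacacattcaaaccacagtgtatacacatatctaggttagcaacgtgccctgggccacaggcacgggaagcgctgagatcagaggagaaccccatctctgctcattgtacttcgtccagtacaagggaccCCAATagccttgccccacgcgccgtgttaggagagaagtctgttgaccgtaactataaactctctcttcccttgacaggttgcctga
Cd36 (chr5:17835897-17836146, minus strand): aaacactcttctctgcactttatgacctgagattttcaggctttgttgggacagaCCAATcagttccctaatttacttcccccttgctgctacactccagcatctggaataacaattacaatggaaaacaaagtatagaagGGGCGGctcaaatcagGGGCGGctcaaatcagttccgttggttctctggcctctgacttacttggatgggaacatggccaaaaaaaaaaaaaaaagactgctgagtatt
Fasn (chr11:120824548-120824797, minus strand): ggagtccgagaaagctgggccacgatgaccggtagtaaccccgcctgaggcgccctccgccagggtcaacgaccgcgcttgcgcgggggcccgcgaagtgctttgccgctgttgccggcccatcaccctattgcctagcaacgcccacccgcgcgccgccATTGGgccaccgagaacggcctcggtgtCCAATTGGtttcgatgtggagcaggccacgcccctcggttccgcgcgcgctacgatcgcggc
Acaca (chr11:84195188-84195437, plus strand): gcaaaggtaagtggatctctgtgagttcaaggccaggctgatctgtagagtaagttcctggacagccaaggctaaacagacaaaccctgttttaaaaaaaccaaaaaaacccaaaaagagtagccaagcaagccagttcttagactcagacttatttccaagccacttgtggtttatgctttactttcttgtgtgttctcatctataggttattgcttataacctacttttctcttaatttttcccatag
Fasn held 3 matches to CCAAT, at 90 to 86, 62 to 58 and 59 to 55 bases before the start, the last 2 overlapping on opposite strands. Cd36 held 1 CCAAT and 2 GGGCGG matches, Acacb 1 CCAAT match and Acaca none. CCAAT occurred in 33.8% and GGGCGG in 32.7% of 32851 promoter windows of the same length. Exact strings were also sought for a sterol response element (TCACNCCAC, 1.05% of windows) and an E-box (CACGTG, 6.02%). A pair of AGGTCA in tandem with any base between (0.0335%) was sought too. None of these had a match in the 4 windows. Sites that depart from these strings were not sought, so such sites may be present.

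**Figure D2:**
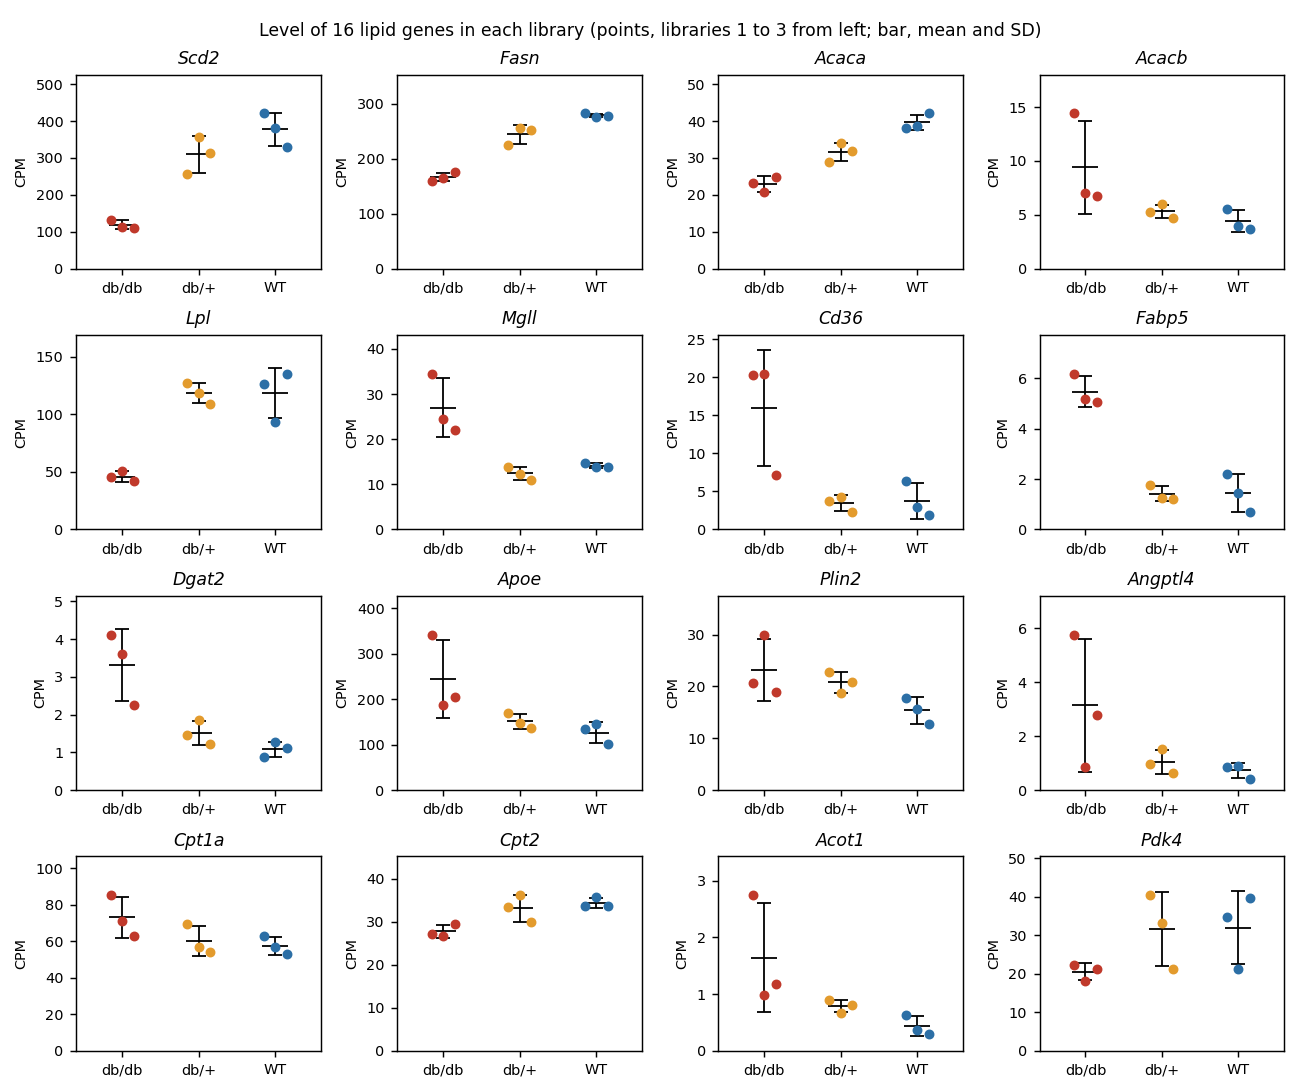
Level (CPM on normalised library sizes, y axis from 0) of 16 of the genes in each db/db, db/+ and WT library; points are libraries 1 to 3 from left, bars the mean and SD (n = 3). Scd2, Fasn, Acaca and Lpl are lower in all db/db libraries, while Acacb, Angptl4 and Acot1 have their highest value in db/db 1.

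Genes of uptake and storage were mostly higher or not called in db/db islets. Cd36, Fabp5, Dgat2, Mgll, Angptl4, Plin2 and Apoe rose against WT, and Lpl alone fell. Lpl, the lipoprotein lipase that frees fatty acids from circulating triglyceride (chr8:68880555-68906932), had 45.3, 50.8 and 42.0 CPM in db/db, 127, 119.05 and 109 CPM in db/+ libraries and 126, 93.8 and 135 CPM in WT libraries. The db/db libraries lay well below the other 6, which overlapped each other. The log2 fold change was -1.36 ± 0.13 against WT (adjusted p = 6.47e-06, edgeR) and -1.37 ± 0.13 against db/+ (adjusted p = 6.60e-06, edgeR).

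Angptl4, a secreted inhibitor of lipoprotein lipase, had 5.76, 0.867 and 2.80 CPM in db/db, 0.970, 1.52 and 0.653 CPM in db/+ libraries and 0.873, 0.903 and 0.406 CPM in WT libraries. Library db/db 2 lay within the range of the other groups. The rise was 2.06 ± 0.60 against WT (adjusted p = 0.0161, edgeR); without db/db 1 it was 1.32 and not called (adjusted p = 0.0667), nor was it without WT 3 (adjusted p = 0.0588). Cd36, a fatty acid transporter and scavenger receptor (chr5:17781690-17888959), had 20.3, 20.4 and 7.22 CPM in db/db, 3.72, 4.30 and 2.28 CPM in db/+ libraries and 6.43, 2.98 and 1.93 CPM in WT libraries. Every db/db library lay above the other 6, db/db 3 only just above WT 1. It rose by 2.04 ± 0.53 against WT (adjusted p = 0.0158, edgeR) and by 2.21 ± 0.53 against db/+ (adjusted p = 0.0118, edgeR). Against WT the call was lost without db/db 1 (1.82, adjusted p = 0.0517) or without WT 2 (adjusted p = 0.0562). Fabp5, a cytosolic fatty acid binding protein (chr3:10012585-10016610), had 6.17, 5.20 and 5.06 CPM in db/db, 1.78, 1.27 and 1.22 CPM in db/+ libraries and 2.22, 1.44 and 0.711 CPM in WT libraries. The 3 db/db libraries lay close together and above the other 6. The rise was 1.87 ± 0.34 against WT (adjusted p = 6.20e-04, edgeR) and 1.93 ± 0.34 against db/+ (adjusted p = 4.93e-04, edgeR), and it kept its call in both comparisons on leaving out any library.

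Dgat2, an enzyme of the last step of triglyceride synthesis (chr7:99153663-99182713), had 4.12, 3.59 and 2.26 CPM in db/db, 1.46, 1.86 and 1.22 CPM in db/+ libraries and 0.873, 1.26 and 1.12 CPM in WT libraries. It rose by 1.60 ± 0.34 against WT (adjusted p = 0.00184, edgeR) and by 1.12 ± 0.32 against db/+ (adjusted p = 0.0128, edgeR). Dgat1, which catalyses the same step, was not called (-0.01 ± 0.13, adjusted p = 0.959, edgeR) at 16.6, 17.6 and 18.9 CPM in db/db against 19.2, 19.1 and 15.04 CPM in WT libraries. Per kilobase, Dgat2 stood to Dgat1 as 0.208, 0.171 and 0.101 in db/db, 0.0587, 0.0846 and 0.0451 in db/+ and 0.0381, 0.0554 and 0.0623 in WT libraries; the minor form rose while the major one was not called. Mgll, the monoglyceride lipase that ends lipolysis (chr6:88724412-88828360), had 34.4, 24.4 and 22.1 CPM in db/db, 13.9, 12.3 and 11.01 CPM in db/+ libraries and 14.8, 13.8 and 13.9 CPM in WT libraries. It rose by 0.92 ± 0.16 against WT (adjusted p = 3.97e-04, edgeR) and by 1.11 ± 0.16 against db/+ (adjusted p = 9.08e-05, edgeR). The lipases that act before it were not called: Pnpla2, the triglyceride lipase, had a log2 fold change of -0.26 ± 0.12 (adjusted p = 0.0963, edgeR) and Lipe, the hormone-sensitive lipase, 0.00 ± 0.20. Without db/db 1, Pnpla2 was called lower (-0.38, adjusted p = 0.0247).

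Plin2, a coat protein of lipid droplets, had 20.6, 30.0 and 18.9 CPM in db/db, 22.7, 18.7 and 20.9 CPM in db/+ libraries and 17.8, 15.7 and 12.7 CPM in WT libraries. It rose against WT (0.58 ± 0.18, adjusted p = 0.0184, edgeR), not without db/db 2 (0.34, adjusted p = 0.102) or WT 3 (adjusted p = 0.0724), and was not called against db/+ (0.15, adjusted p = 0.512). Apoe, the apolipoprotein for lipoprotein uptake, was the most abundant storage gene per kilobase in every group and had 341, 186 and 203 CPM in db/db, 170.1, 147 and 137 CPM in db/+ libraries and 134, 145 and 100.6 CPM in WT libraries. It rose against WT (0.94 ± 0.25, adjusted p = 0.0201, edgeR), with 0.62 and an adjusted p of 0.00505 without db/db 1, and lost its call without WT 1 or WT 3 (adjusted p = 0.0551 and 0.0575). The other storage genes were not called in either comparison over all libraries, with log2 fold changes against WT between -0.26 (Pnpla2) and 0.54 (Plin3). They include the acyl-CoA synthetases Acsl1, Acsl3 and Acsl4 and the glycerolipid enzymes Gpam, Agpat2 and Lpin1. Without db/db 1, Agpat2 was called lower against db/+ (-0.56, adjusted p = 0.0232, edgeR). Against WT, leaving out 1 library added calls of higher levels by edgeR. These were Acsl1 without WT 1 (adjusted p = 0.0102), Lpin1 without WT 3 (adjusted p = 0.0328) and Plin3 without db/db 3 (adjusted p = 0.0448). Cidec, a droplet fusion protein of adipocytes, had 0, 1 and 1 counts in db/db, 0, 3 and 0 in db/+ and 1, 0 and 1 in WT libraries and was too low to test.

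Several of the risen storage genes are also expressed by cells other than endocrine cells, Cd36 by endothelium and macrophages, Apoe by macrophages and Fabp5 by both. Of 19 endothelial markers tested, 12 rose in db/db against WT islets, and their summed level was 972 to 1368 CPM in db/db, 696 to 797 CPM in db/+ libraries and 743 to 812 CPM in WT libraries. Of 21 macrophage markers, 5 rose, with sums of 214 to 370 CPM in db/db, 141 to 174 CPM in db/+ libraries and 142 to 195 CPM in WT libraries. The 14 stellate cell and fibroblast markers had 9 risen, with sums of 804 to 2131 CPM in db/db, 255 to 387 CPM in db/+ libraries and 260 to 374 CPM in WT libraries. Against WT, 21.8% of all tested genes rose, so the macrophage share (23.8%) was near the background. The endothelial share was 63.2% and the stellate and fibroblast share 64.3%. Against db/+, 9 of the 21 macrophage markers rose (42.9%), beside 20.6% of all tested genes. The endothelial share risen against db/+ was 68.4% and the stellate and fibroblast share 64.3%. The part of these cell types in the rise of the storage genes was not tested. Of 14 adipocyte markers 4 were high enough to test and 2 of them rose (Fabp4 and Cidea, which are also on the list of further storage genes); Adipoq had no count in any library, and the sum was 16.6 to 35.8 CPM in db/db, 9.53 to 18.8 CPM in db/+ libraries and 8.84 to 20.3 CPM in WT libraries. Markers of acinar cells, which make digestive enzymes, summed to 20225 to 56377 CPM in db/db, 16616 to 37916 CPM in db/+ libraries and 7193 to 13573 CPM in WT libraries. Of 28 tested, 17 rose against WT (60.7%). With the acinar level as a covariate, 5 of the 42 lipid genes were called against WT. All 5 were lower (Scd2, Fasn, Acaca, Elovl5 and Lpl), and none of the 12 risen genes kept its call. That fit called 19.5% of all tested genes (1843 higher and 1446 lower). The acinar sums of db/db and WT libraries did not overlap, so the acinar level cannot be fully separated from genotype there. Against db/+, 2 of 28 acinar markers rose and 1 fell. There the same covariate gave 4 risen and 6 fallen lipid genes, beside 37.3% of all tested genes called. Acacb, Angptl4 and Cpt2 were no longer called and Agpat2 was called lower.

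**Figure D3:**
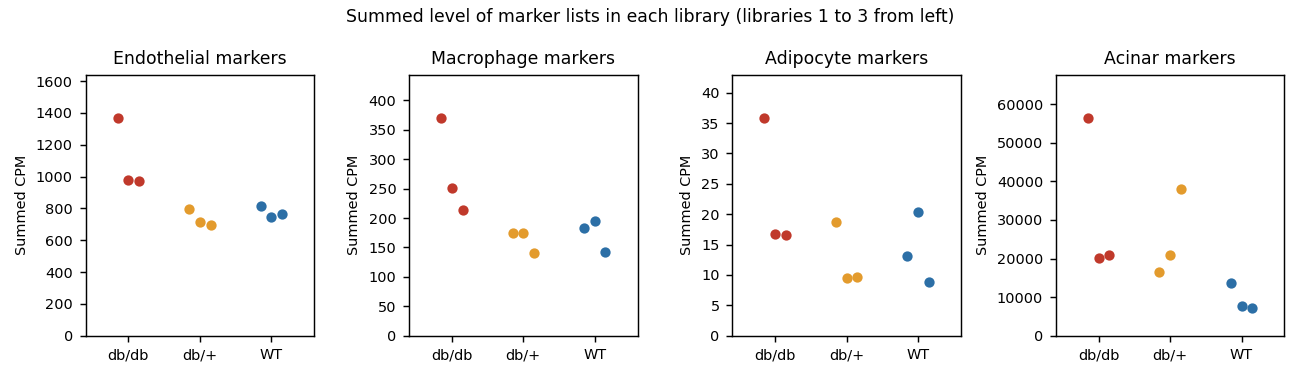
Summed level (CPM, y axes from 0) of the endothelial, macrophage, adipocyte and acinar marker lists in each db/db, db/+ and WT library, libraries 1 to 3 from left. Endothelial and macrophage sums lie above both other groups in every db/db library, acinar sums overlap between db/db and db/+, and db/db 1 is the highest library in each panel.

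Of 13 oxidation genes tested, Cpt1a, Acadvl and Acot1 rose and Cpt2 fell against WT, and 9 were not called. The share called was 30.8%, beside 41.7% of all tested genes. The share risen was 23.1%, near the background of 21.8%, and the share fallen 7.69%, beside 19.9%. Cpt1a and Cpt2 encode the outer and inner carnitine palmitoyltransferases, which pass long-chain fatty acids into mitochondria. Cpt1a had 85.1, 71.1 and 62.7 CPM in db/db, 69.4, 56.7 and 54.2 CPM in db/+ libraries and 62.6, 56.9 and 52.7 CPM in WT libraries. The lowest db/db and highest WT libraries nearly met, and the rise was 0.34 ± 0.12 (adjusted p = 0.0391, edgeR). Cpt2 had 27.0, 26.6 and 29.5 CPM in db/db, 33.3, 36.1 and 29.9 CPM in db/+ libraries and 33.7, 35.7 and 33.6 CPM in WT libraries. It fell by 0.31 ± 0.10 against WT (log2, adjusted p = 0.0209, edgeR) and by 0.25 ± 0.10 against db/+ (adjusted p = 0.0497). Acadvl, the very long chain acyl-CoA dehydrogenase, had 64.4, 57.1 and 67.6 CPM in db/db, 57.6, 60.1 and 58.7 CPM in db/+ libraries and 55.5, 53.4 and 50.5 CPM in WT libraries, a rise of 0.25 ± 0.08 (adjusted p = 0.0262, edgeR). None of these 3 calls against WT held without db/db 1 (adjusted p = 0.142 for Cpt1a, 0.0514 for Cpt2 and 0.0621 for Acadvl), and each was also lost on leaving out WT 2. The Cpt1a call was lost without db/db 2, db/+ 2 or WT 3 too, that of Cpt2 without db/db 2, and that of Acadvl without db/db 3 or WT 3.

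Acot1, a cytosolic acyl-CoA thioesterase (chr12:84009502-84017670), was near the limit of the test, with 20, 8 and 11 counts in db/db, 11, 8 and 10 in db/+ and 8, 4 and 3 in WT libraries. In CPM these were 2.74, 0.991 and 1.19 in db/db, 0.889, 0.675 and 0.816 in db/+ and 0.635, 0.361 and 0.305 in WT libraries, where 3 counts correspond to 0.238 to 0.412 CPM. It rose by 1.83 ± 0.49 against WT (adjusted p = 0.00895, edgeR) and, without db/db 1, by 1.28 with no call (adjusted p = 0.0590). Acot2, its mitochondrial counterpart at chr12:83987861-83993877, is nearly identical in sequence, so reads could be split between them; it was not called (-0.02 ± 0.23). The trifunctional protein subunits Hadha and Hadhb, the dehydrogenases Acadm and Acadl, the peroxisomal Ehhadh, and the regulators Pparg and Ppargc1a were not called, with changes against WT between -0.16 (Hadhb) and 0.27 (Ehhadh). Without db/db 1, Acadm was called lower against WT (-0.38, adjusted p = 0.0418) and against db/+ (-0.46, adjusted p = 0.0167). Pdk4, the kinase that shuts pyruvate dehydrogenase, had 22.4, 18.1 and 21.1 CPM in db/db, 40.3, 33.2 and 21.2 CPM in db/+ libraries and 34.8, 21.3 and 39.7 CPM in WT libraries. Low values occurred in every group, and the change of -0.64 ± 0.29 was not called (adjusted p = 0.117, edgeR), although it was by DESeq2 (adjusted p = 0.0232) and by edgeR without WT 2 or db/+ 3. Ppara, the nuclear receptor that drives oxidation genes in liver, had 14, 7 and 4 counts in db/db, 7, 5 and 6 in db/+ and 3, 2 and 7 in WT libraries and was not tested.

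**Figure D4:**
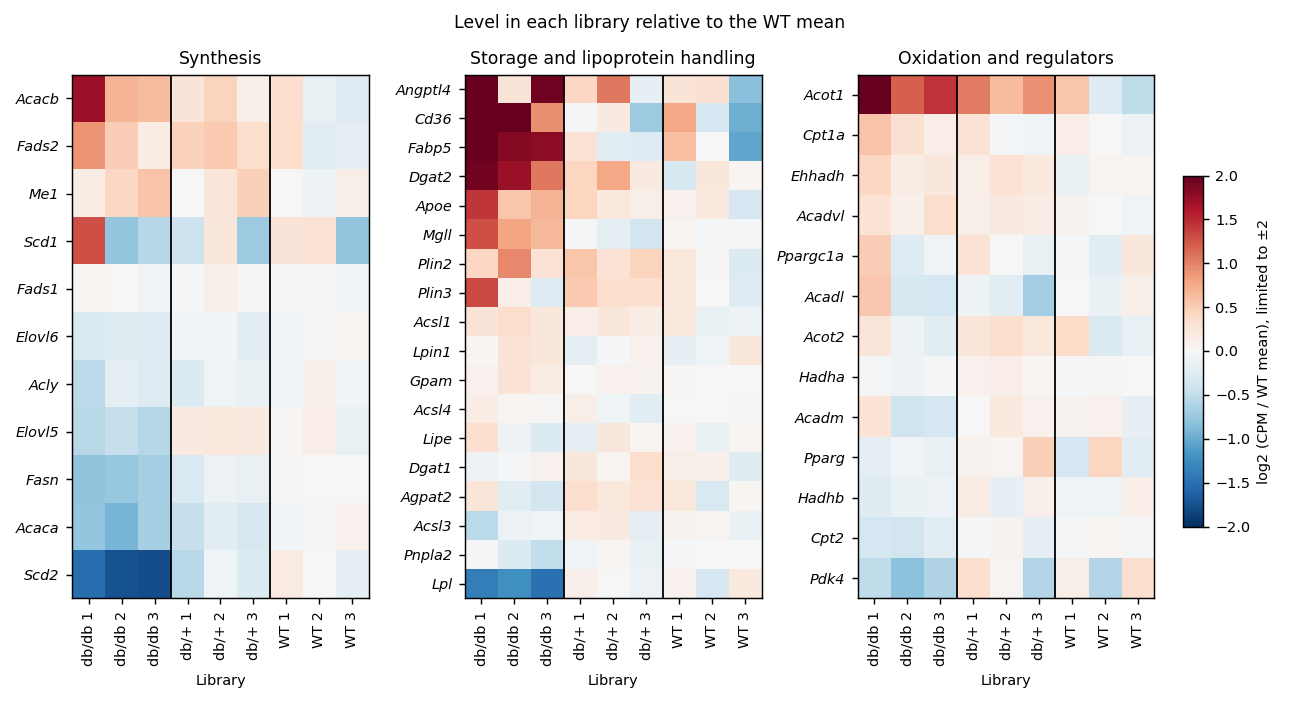
Level of each of the 42 tested genes (rows) in each library (columns), as log2 of CPM over the WT mean, with the colour limited at 2 in either direction. The blue block of Scd2, Acaca, Fasn and Lpl covers all 3 db/db libraries, whereas the red of several storage genes is deepest in db/db 1.

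Set against db/+ in place of WT, db/db islets showed 6 risen and 6 fallen of 42 lipid genes (28.6%), beside 40.3% of all tested genes (20.6% higher, 19.7% lower). The db/db libraries lay above all db/+ libraries for 8 and below them for 9 of the 42, where 26.2% and 26.0% of all tested genes did (52.2% together). Synthesis genes had 1 risen and 4 fallen, storage genes 5 risen and 1 fallen, and oxidation genes none risen and 1 fallen. The genes called were Scd2, Fasn, Acaca, Elovl5, Lpl and Cpt2, all lower, and Mgll, Fabp5, Cd36, Dgat2, Acacb and Angptl4, all higher. Each of the 12 was also called against WT in the same direction; the comparisons share the db/db libraries, so they are not independent. Scaling by library totals gave 4 risen and 16 fallen, with 4 risen and 5 fallen storage genes (all tested genes 2011 higher and 5265 lower, against 3459 higher and 3314 lower as reported). Apoe missed the threshold against db/+ (0.69 ± 0.25, adjusted p = 0.0636, edgeR), as did Cpt1a (0.28 ± 0.12, adjusted p = 0.0868, edgeR). Cpt2 lost its call on leaving out any library but db/+ 3, Angptl4 any but db/+ 2 and db/db 2, and Dgat2 on leaving out db/+ 3 (adjusted p = 0.0545).

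Sample titles begin with 1 of 2 letters, which the labels do not explain. All db/db libraries bear H, all db/+ libraries G, and WT has 2 of G and 1 of H, so no letter holds both db/db and db/+ libraries. Within letter H, the db/db libraries against the single library WT 3 had log2 fold changes of -1.48 for Scd2, -0.74 for Fasn, -0.88 for Acaca, -0.38 for Elovl5, -1.56 for Lpl and 2.91 for Fabp5, values that rest on 1 WT library. With the letter as a covariate in the fit of all 9 libraries, the effect of the letter is estimated from the WT libraries alone. Against WT, that fit in effect sets the db/db libraries beside WT 3, so it too rests on 1 WT library. There, 7 rose (Acacb, Mgll, Fabp5, Dgat2, Cd36, Plin2 and Apoe) and 5 fell (Scd2, Fasn, Acaca, Elovl5 and Lpl), beside 26.3% of all tested genes called. Against db/+, that fit gave 2 risen (Mgll and Fabp5) and 5 fallen (Scd2, Fasn, Acaca, Elovl5 and Lpl), beside 12.1% of all tested genes called. Cd36 (3.50, adjusted p = 0.0671) and Dgat2 (1.05, adjusted p = 0.336) were not called in it. With the Y-linked level as a covariate, Elovl6, Plin2, Acadvl and Cpt2 lost their calls against WT, and Acaca (-0.47, adjusted p = 0.0642) and Cpt2 lost theirs against db/+. That fit also added calls: Scd1 and Plin3 were called higher against WT. Against db/+ it called Scd1, Plin3, Apoe, Cpt1a, Acot1 and Acadl higher and Acsl3 lower. Over all tested genes it called 27.9% against WT and 26.2% against db/+. The Y-linked level was 176, 1.11 and 0.108 CPM in db/db, 219 to 343 CPM in WT and 373 to 417 CPM in db/+ libraries. The effect of this covariate is thus estimated mostly from db/db 1 beside db/db 2 and db/db 3, so these calls lean on db/db 1.

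No lipid gene of the 42 was called in db/+ against WT islets by edgeR, DESeq2 or limma-voom, where edgeR called 1.43% of all tested genes, 0.606% higher and 0.820% lower. The db/+ libraries lay above all WT libraries for 9 and below them for 3 of the 42, beside 12.1% and 10.4% of all tested genes (22.5% together). Without adjustment, 6 had an edgeR p under 0.05: Acaca, Elovl5, Fads2, Fasn, Plin2 and Scd2. The db/+ values of Fasn and Acaca lay between the db/db and WT ranges, with log2 fold changes of -0.19 (adjusted p = 0.23, edgeR) and -0.33 (adjusted p = 0.116, edgeR) against WT. Elovl5 was, in db/+, above both other groups (0.19, adjusted p = 0.247).

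Other genes of the same pathways were taken from lists beyond the 44. These lists were also chosen with earlier results of these data known, so they are no independent check of the 44. Of 23 further synthesis genes tested (26 listed), 9 rose and 4 fell in db/db against WT islets. Srebf1, the transcription factor that drives lipogenic genes, fell by 1.24 ± 0.08 (log2, adjusted p = 4.84e-08, edgeR), and Mlxipl, which encodes the glucose-responsive factor ChREBP, fell by 1.16 ± 0.14 (adjusted p = 7.99e-05). Acss2, which makes acetyl-CoA from acetate, fell by 0.74 ± 0.10 (adjusted p = 5.35e-05), while Me3, a mitochondrial malic enzyme, rose by 1.91 ± 0.21 (adjusted p = 8.03e-06), and the elongases Elovl7 and Elovl2 rose by 0.88 and 0.89. In this wider list more genes rose than fell, unlike the 11 core genes; that difference was not tested.

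Of 32 further storage and lipoprotein genes tested (50 listed), 16 rose and 1 fell. Lpin2, a phosphatidate phosphatase, rose by 1.43 ± 0.09 (adjusted p = 5.13e-08, edgeR), and Pnpla3, a lipid droplet protein, by 2.48 ± 0.22 (adjusted p = 1.30e-06). Apob, the core protein of triglyceride-rich lipoproteins, rose by 4.56 ± 0.48 (adjusted p = 6.39e-06, edgeR), and Agpat3 was the gene that fell (-0.24 ± 0.07, adjusted p = 0.0168). Of 42 further oxidation genes (48 listed), 10 rose and 10 fell, near the background in each direction. Hadh, the short-chain hydroxyacyl-CoA dehydrogenase that is abundant in beta cells, fell by 1.56 ± 0.10 (log2, adjusted p = 6.81e-08, edgeR), and Acadsb and the peroxisomal transporter Abcd3 fell by 0.71 and 0.50. Pdk1 and Pdk3, kinases of pyruvate dehydrogenase, rose by 1.21 ± 0.09 and 0.71 ± 0.12, and Etfb, an electron carrier, by 0.99 ± 0.15. In db/+ against WT islets none of the 97 further genes was called by edgeR, DESeq2 or limma-voom, and 14 had an unadjusted edgeR p under 0.05.

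**Figure D5:**
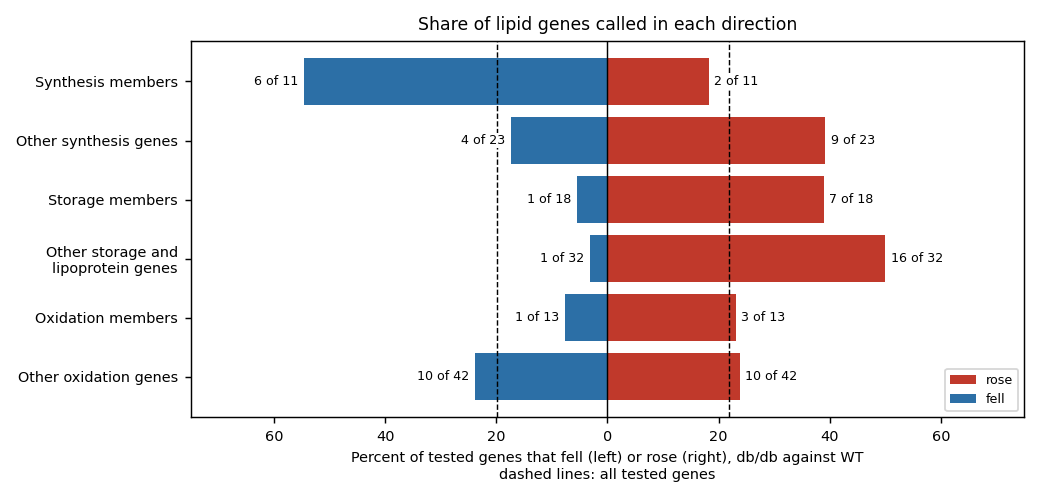
Percent of tested genes that fell (blue, left) or rose (red, right) in db/db against WT islets, for the 3 subsets and for further genes of each pathway; dashed lines are the 19.9% and 21.8% of all tested genes. Both storage lists lean to the right (7 of 18 and 16 of 32 risen), while the core synthesis genes lean to the left (6 of 11 fallen). All lists were chosen with earlier results of these data known.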

How the data were processed

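Ribosome-depleted RNA from the 9 islet samples was sequenced on an Illumina instrument, per the labels. Per the submitters' processing notes, bcl2fastq 2.20.0.422, TopHat2 2.0.14 and mm10 were used; the counting program, annotation and strand setting were not given in the sources used here. The authors deposited raw counts per gene symbol, and 1 column that matches no sample label was not used. Of 52459 symbols, 29854 had a count and 16826 passed edgeR's filterByExpr.

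Groups were compared with edgeR 4.0.16 (R 4.3.3) by robust quasi-likelihood F-tests on TMM-normalised counts, 1 coefficient a group over all 9 libraries with 6 residual degrees of freedom, and Benjamini-Hochberg adjustment over all tested genes. The standard error is the log2 fold change divided by the square root of F. CPM use TMM library sizes; levels per kilobase use the longest GENCODE vM1 transcript. Library totals were 8860024 to 11734886, and 3 counts equalled 0.238 to 0.412 CPM. The test was tried on simulated counts first.

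Members and lists were chosen with earlier results of these data known. Full values are given for up to 4 risen and 4 fallen genes a subset with the smallest adjusted p in db/db against WT, and 3 each of the further lists; genes that were not called but act beside a called one were added after their values were seen. Alternatives were DESeq2 1.42.0, limma-voom 3.58.1, other filters and scalings, covariates (the title letter, the acinar level, and Y-linked CPM after adding 1), a test against a 1.5-fold change, the 2 groups alone, a length correction, and each library left out. The full strain label is not reported here.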

Additional observations from a re-analysis of the deposited data

How the results depend on the processing

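Values in this paragraph count lipid genes called of the 42 tested. In db/db against WT islets, 20 were called (12 risen, 8 fallen), beside 41.7% of all tested genes. Testing against a 1.5-fold change gave 4 (2 risen, 2 fallen), beside 10.8% of all tested genes. The title letter as a covariate gave 12 (7 risen, 5 fallen), beside 26.3% of all tested genes. In that fit db/db is in effect set against WT 3 alone. The acinar level as a covariate gave 5 (0 risen, 5 fallen), beside 19.5% of all tested genes, with Fads2 reversed at -0.0099. The libraries with title letter H alone, an alternative chosen after seeing the data, gave 7 with 1 risen, on a single WT library assumed to vary like the others. Leaving out each library in turn gave 15 to 20 called, 7 to 12 risen and 7 to 9 fallen, the fewest risen without WT 3 or db/db 1. In db/db against db/+ islets, 12 were called (6 risen, 6 fallen). Library totals gave 20 with 16 fallen, the 1.5-fold test 4 (2 risen, 2 fallen), the title letter 7 with 2 risen, and the Y-linked covariate 12 risen. Leaving out each library gave 10 to 12 called, 3 to 7 risen and 5 to 7 fallen, the fewest risen without db/+ 3. In db/+ against WT islets the count was 0 under every alternative run. Scd2, Fasn, Acaca, Elovl5 and Lpl kept their calls against WT under every alternative run, except that Fasn, Acaca and Elovl5 were not called by the 1.5-fold test. The cause of these changes was not tested, except that the 1.5-fold test and the single-letter fit are stricter or smaller by construction. No paired analysis was possible because the labels carry no replicate numbers. Ppara and Cidec were too low to test, and Acot1, Angptl4 and Fabp5 had under 10 counts in some libraries.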
